A study of Homo sapiens with 12 samples.

Results

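The 9 genes described here are long noncoding RNAs of the nucleus and noncoding hosts of small nucleolar RNAs (snoRNAs), chosen by their symbols from a gene list proposed with earlier results of these counts in view. All 9 listed symbols were found among the 25370 genes of the count table: MALAT1, NEAT1, FTX and KCNQ1OT1, which act in the nucleus or on chromatin, and the snoRNA hosts GAS5, SNHG1, SNHG5, SNHG8 and SNHG12. Because the choice was made with results known, the p-values below describe these libraries and are not independent support for any pattern among the members. The cells were T47D, an established estrogen receptor-positive luminal breast cancer line, kept for 48 h in medium with 5% charcoal-stripped serum and for 24 h without serum. There were 4 groups of 3 libraries, lettered a, b and c, that received vehicle, 10 nM anastrozole, 0.1 nM estradiol (E2) or both agents at these doses. Treatment lasted 12 h by the sample labels and 24 h by the study's methods. Gene counts summed to between 9914253 and 17009776 reads in a library (median 13538621). The labels name the molecule polyA RNA, whereas the protocol describes libraries from total RNA, which matters for RNAs that differ in their tails. The labels do not say that the 3 libraries of a group came from separate cultures, so the p-values measure the spread between these libraries, which may be technical.

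Anastrozole is an aromatase inhibitor used in estrogen receptor-positive breast cancer, and E2 is the main ligand of that receptor. MALAT1 is a very abundant RNA of nuclear speckles, where splicing factors gather. NEAT1 is the scaffold of paraspeckles, nuclear bodies assembled on its long isoform by proteins such as NONO and SFPQ. KCNQ1OT1 is an antisense transcript of the KCNQ1 locus that silences imprinted neighbours in cis, and FTX lies in the X-inactivation center and hosts several microRNAs. SnoRNA host genes carry snoRNAs in their introns. Their spliced exons code for no conserved protein and, for hosts such as GAS5, are degraded in the cytoplasm by nonsense-mediated decay while they are being translated. GAS5 takes its name from its accumulation in growth-arrested cells.

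On the hg19 build used for the counts, GENCODE places MALAT1 at chr11:65265111-65275544 (plus strand) and NEAT1 nearby at chr11:65190245-65213011 (plus strand). KCNQ1OT1 lies at chr11:2618538-2721233, SNHG1 at chr11:62619450-62623425, GAS5 at chr1:173827697-173838020, SNHG12 at chr1:28905050-28909644, SNHG5 at chr6:86360209-86388650 and FTX at chrX:73160270-73513409, all on the minus strand. SNHG8 lies at chr4:119199858-119206471 on the plus strand. Several members share bases with genes on the opposite strand. The antisense gene TALAM1 covers 77.8% of the exon bases of MALAT1, PRSS12 covers 37.6% of those of SNHG8, and JPX covers 28% of those of FTX. Whether the counting used strand is not given in the sources used here, so reads of these pairs cannot be told apart. PRSS12 had between 0 and 3 reads per library.

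Promoter sequences from RefSeq were at hand for 7 of the 9 members, in windows from 250 bases before to 50 bases after an annotated start. The 5 snoRNA hosts are shown because 3 of them rose with E2 and the remaining 2 did not pass the test. Each line gives 45 bases before and 35 from the start onward on the gene's own strand, with the letters TATAA in capitals where they begin 15 to 40 bases before the start.
SNHG12 (GRCh38.p14, chr1:28581839-28581918, minus strand): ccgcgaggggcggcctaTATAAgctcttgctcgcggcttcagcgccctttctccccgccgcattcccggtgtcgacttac
SNHG1 (GRCh38.p14, chr11:62855851-62855930, minus strand): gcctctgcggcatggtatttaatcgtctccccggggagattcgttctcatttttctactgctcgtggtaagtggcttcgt
GAS5 (GRCh38.p14, chr1:173869011-173869090, minus strand): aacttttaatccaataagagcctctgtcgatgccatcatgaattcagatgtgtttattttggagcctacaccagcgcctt
SNHG5 (GRCh38.p14, chr6:85678699-85678778, minus strand): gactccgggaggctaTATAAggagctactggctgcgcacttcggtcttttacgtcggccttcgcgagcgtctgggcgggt
SNHG8 (GRCh38.p14, chr4:118278717-118278796, plus strand): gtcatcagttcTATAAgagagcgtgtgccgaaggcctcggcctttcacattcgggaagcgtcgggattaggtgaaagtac
TATAA began 28 bases before the start of SNHG12, 30 before that of SNHG5 and 34 before that of SNHG8. Of 35116 promoters of this length, 1425 (4.06%) hold TATAA at this distance on the gene's strand and 20.4% hold it anywhere on either strand. MALAT1 has 2 RefSeq starts, and at 1 of them TATAA began 30 bases before the start, so 4 of 7 members had the letters in this window. Hosts that rose with E2 were found both with these letters (SNHG12) and without them (SNHG1 and GAS5), and both hosts that did not pass the test had them. A match is a description of the letters, not of a site in use.

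MALAT1 took more reads than any other gene in each of the 12 libraries, between 1.03% and 1.34% of the reads counted on genes. NEAT1 ranked between 14 and 27 by reads. The other 7 members lay lower, GAS5 between 473 and 724, SNHG5, KCNQ1OT1 and SNHG1 between 1302 and 2780, SNHG8 between 5739 and 6402, SNHG12 between 9464 and 10789 and FTX between 11991 and 13278. Together the 5 hosts took between 0.0491% and 0.0624% of gene reads. Per kilobase of GENCODE exon, MALAT1 stood at 1053 CPM (a gene's share of the library's reads, scaled as edgeR does with TMM normalization) in vehicle cells. NEAT1 stood at 87.2 over a GENCODE model that includes the long isoform. The annotation used for the counting is not given, so the NEAT1 model that was counted may be shorter. Its value per kilobase would then be higher, so MALAT1 and NEAT1 are not compared per length. Between the other members no order per length was set either, because their models disagree. KCNQ1OT1 was at 1.2 CPM per kilobase over all annotated exon bases but at 163 over its canonical transcript, and FTX at 0.0941 and 4.32. Every member was above the floor that a count of 3 gives (0.177 to 0.303 CPM, counting error only), but FTX rested on 26 to 56 reads and SNHG12 on 112 to 242.

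**Figure D1:**
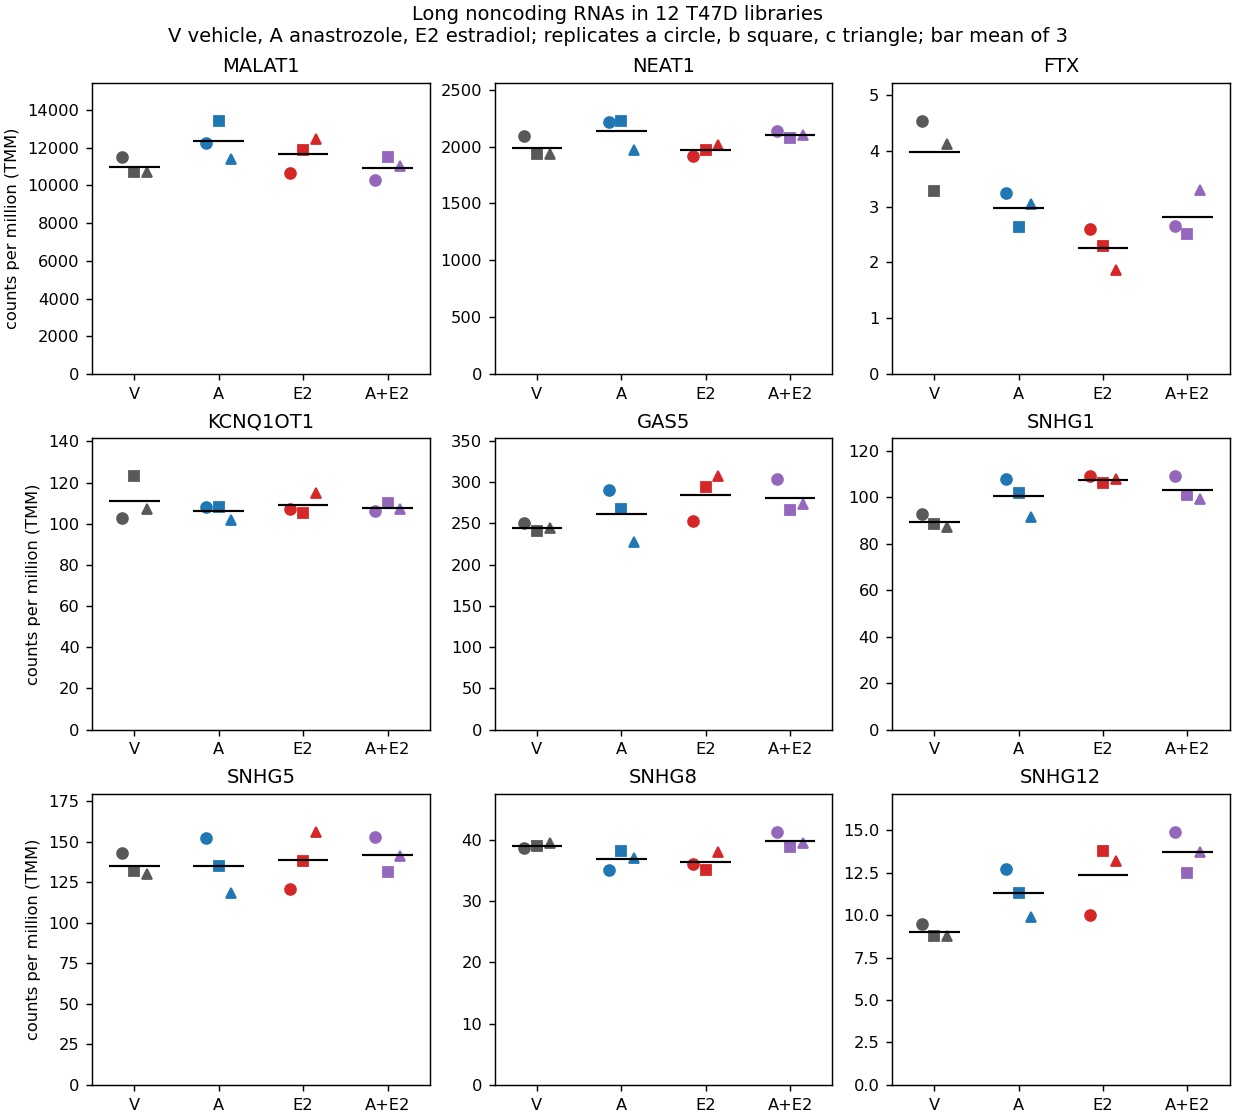
TMM-normalized CPM of the 9 long noncoding RNAs (y axes, from 0) in vehicle, anastrozole, E2 and combined treatment, with 1 point per library and a bar at the mean of 3. FTX has its highest mean in vehicle (3.97) and SNHG12 its lowest values there (8.74 to 9.46), while KCNQ1OT1 stays between 102 and 123 throughout.

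The identity of the cells was checked with marker genes. All 8 luminal markers were present, with KRT19 the most abundant (2539 to 3148 CPM) and ESR1 between 163 and 188 CPM, and the summed level of the 8 was between 9224 and 10274 CPM per library, with all 3 vehicle libraries (at least 10149) above all treated ones (at most 10072). The 11 markers of basal, stromal, endothelial and immune cells summed to between 88.4 and 108 CPM, most of it COL1A1 (80 to 99.9 CPM). KRT5, COL1A2, DCN, PECAM1, PTPRC and CD3E had at most 3 reads in any library. CD68, an immune marker with 41 to 99 reads, rose with anastrozole (0.71 on the log2 scale, SE 0.18, edgeR adjusted p = 0.0051) and with E2 (0.55, SE 0.17, adjusted p = 0.015), and 4 of the 8 luminal markers were called lower with E2 (12% of all genes called, 28.3% of those of at least 5 log2 CPM), KRT19 (-0.16), FOXA1 (-0.14), ESR1 (-0.14) and KRT8 (-0.10). Of these KRT19 (-0.05) and KRT8 (-0.03) did not pass with the GC trend described further on removed. PGR fell with anastrozole (-0.13, edgeR adjusted p = 0.026). Whether CD68 came from other cells was not tested. In bulk RNA a change in the number of cells and a change per cell cannot be told apart.

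The first question was what each treatment did against vehicle. Each comparison was fitted across 21132 genes with edgeR's quasi-likelihood test, and a gene was called at a Benjamini-Hochberg adjusted p under 0.05. E2 called 4 of the 9 members, with 12% of all genes called, and 3 of the 4 were snoRNA hosts that rose. The combination called 3 of 9, with 5.04% of all genes called, and these were the same 3 hosts. Anastrozole alone called 1 of 9, MALAT1, with 3.67% of all genes called. Among genes of at least 5 log2 CPM on average, which include 7 members, calls were more frequent: 28.3% of 6788 genes with E2, 10.5% with the combination and 9.07% with anastrozole. Of the members called with E2, GAS5 and SNHG1 reach this level, while FTX (1.62 log2 CPM) and SNHG12 (3.53) do not. The 3 comparisons share the vehicle libraries. The median log2 fold change of the 5 hosts was 0.10 with anastrozole, 0.22 with E2 and 0.20 with the combination, against 0.00 over all genes in each comparison, and that of the 4 nuclear RNAs was 0.02, -0.02 and -0.02.

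**Figure D2:**
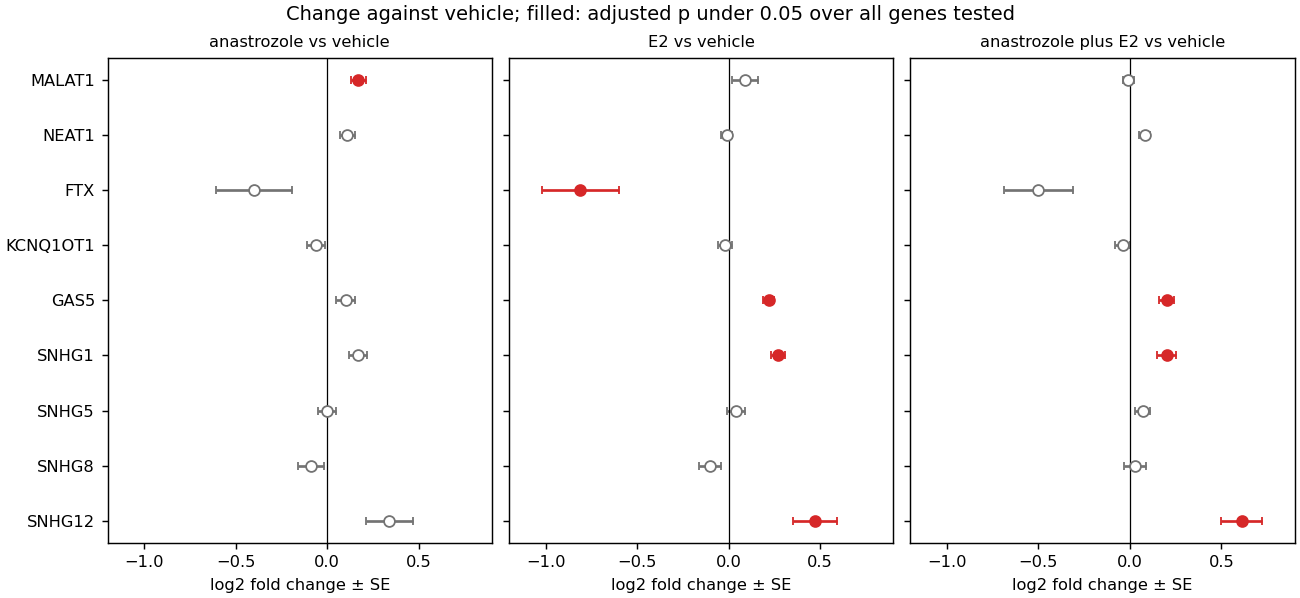
Log2 fold change ± SE of the 9 long noncoding RNAs (x axis) against vehicle for anastrozole, E2 and both, from fits of 6 libraries each, with filled points for an adjusted p under 0.05. SNHG12 shows the highest values in all 3 panels (0.34, 0.47 and 0.61) and FTX the lowest (-0.40, -0.81 and -0.50).

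SNHG12, a host of 4 snoRNAs, was at 9.46, 8.74 and 8.79 CPM in vehicle libraries a, b and c, at 12.7, 11.3 and 9.86 with anastrozole, at 10.0, 13.8 and 13.2 with E2 and at 14.9, 12.5 and 13.7 with the combination. All 9 treated libraries lay above all 3 vehicle libraries, with E2 library a and anastrozole library c the nearest to them. The log2 fold change was 0.61 with the combination (SE 0.11, edgeR adjusted p = 1.9e-06, 1.53-fold) and 0.47 with E2 (SE 0.12, adjusted p = 0.0015, 1.38-fold). With anastrozole it was 0.34 (SE 0.13, adjusted p = 0.12), and leaving out 1 library gave 0.23 to 0.43, with an adjusted p of 0.025 without anastrozole library c. The call with E2 was lost in limma-voom (adjusted p = 0.073, range over the alternatives 7.6e-04 to 0.073), and DESeq2 gave no adjusted p there. Removing the trend of fold changes with GC content, described further on, left these values at 0.62, 0.49 and 0.36.

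SNHG1, which hosts 8 snoRNAs, was at 92.7, 88.7 and 87.1 CPM in vehicle, 108, 102 and 91.6 with anastrozole, 109, 106 and 108 with E2 and 109, 101 and 99.3 with the combination. The 6 libraries with E2 lay above the vehicle libraries, and of the anastrozole libraries only c overlapped them. SNHG1 rose with E2 by 0.27 on the log2 scale (SE 0.04, edgeR adjusted p = 1.7e-07) and with the combination by 0.20 (SE 0.05, adjusted p = 4.0e-04). The call with E2 held in all 8 alternative fits and in each fit that left out 1 library, whereas limma-voom lost the call with the combination (adjusted p = 0.077, range 8.7e-06 to 0.077). With anastrozole the value was 0.17 (SE 0.05, adjusted p = 0.051, range 0.044 to 0.26), and leaving out 1 library gave from 0.11 without anastrozole library a (adjusted p = 0.5) to 0.23 without c (7.7e-04).

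GAS5 was at 250, 241 and 244 CPM in vehicle, 290, 268 and 228 with anastrozole, 253, 294 and 307 with E2 and 304, 266 and 273 with the combination. The vehicle libraries were close to each other, all 6 libraries with E2 were above them, and the anastrozole libraries fell on both sides. GAS5 rose by 0.22 with E2 (SE 0.03, edgeR adjusted p = 2.6e-08) and by 0.20 with the combination (SE 0.04, adjusted p = 5.8e-06). With E2 the call was lost under a stricter filter on low counts (edgeR's filterByExpr, adjusted p = 0.052), in DESeq2 (0.055) and in limma-voom (0.072), against a lowest value of 5.0e-08 among the alternatives. With the combination only limma-voom lost it (0.12, lowest value 4.2e-11). With anastrozole GAS5 gave 0.10 (SE 0.05, adjusted p = 0.26), and leaving out 1 library gave from 0.02 without anastrozole library a (adjusted p = 0.98) to 0.19 without c (4.7e-04).

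The remaining hosts did not pass the test against vehicle. SNHG5 ranged from 118 to 156 CPM over the 12 libraries, with log2 fold changes of 0.00, 0.04 and 0.07 for anastrozole, E2 and the combination. Leaving out 1 library moved the SNHG5 value with the combination between 0.01 and 0.13. SNHG8 was at 38.6, 39.0 and 39.4 CPM in vehicle, 35.1, 38.2 and 37.1 with anastrozole, 36.0, 35.1 and 38.0 with E2 and 41.3, 38.8 and 39.5 with the combination. Each single treatment put all 3 SNHG8 libraries just under the vehicle libraries, by less than 1 CPM at the nearest, and the combination overlapped them. The log2 fold changes were -0.09, -0.10 and 0.03, and with the GC trend removed E2 gave -0.18 with an adjusted p of 0.035 (range over the alternatives 0.035 to 0.42). Leaving out 1 library gave -0.11 to -0.05, -0.13 to -0.07 and 0.01 to 0.06, of which none passed.

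FTX, the member with the fewest reads, was at 4.53, 3.27 and 4.12 CPM in vehicle, 3.25, 2.63 and 3.05 with anastrozole, 2.60, 2.30 and 1.87 with E2 and 2.65, 2.51 and 3.29 with the combination. The E2 and anastrozole libraries lay below all vehicle libraries, although anastrozole library a (3.25) barely did so, and combination library c overlapped them. FTX fell by 0.81 on the log2 scale with E2 (SE 0.21, edgeR adjusted p = 0.0019). That call held in the 7 alternatives that gave an adjusted p (6.2e-04 to 0.042) and without any 1 library. With anastrozole the value was -0.40 (SE 0.21, adjusted p = 0.35) and with the combination -0.50 (SE 0.19, adjusted p = 0.13). JPX, the gene that overlaps FTX on the other strand, was at a mean of 3.5 CPM in vehicle and 2.28 with E2, and fell by 0.62 (SE 0.21, adjusted p = 0.037).

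MALAT1 was at 11526, 10736 and 10705 CPM in vehicle, 12250, 13411 and 11415 with anastrozole, 10674, 11888 and 12462 with E2 and 10264, 11495 and 11008 with the combination. Anastrozole libraries a and b were above the vehicle libraries and c was among them, while the E2 and combination libraries overlapped vehicle. MALAT1 rose by 0.17 with anastrozole (SE 0.04, edgeR adjusted p = 5.2e-04, 1.12-fold). The call was lost with the GC trend removed (adjusted p = 0.32), with filterByExpr (0.084) and in limma-voom (0.21), over a range of 4.6e-05 to 0.32, and also without vehicle library c (0.14) or anastrozole library b (0.34). With E2 the log2 fold change was 0.09 (SE 0.07, adjusted p = 0.58), and leaving out 1 library gave from 0.04 without E2 library c (adjusted p = 0.53) to 0.15 without a (2.1e-05). With the combination it was -0.01 (SE 0.03, adjusted p = 0.96).

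NEAT1 was at 2091, 1931 and 1934 CPM in vehicle, 2219, 2224 and 1968 with anastrozole, 1918, 1973 and 2015 with E2 and 2138, 2071 and 2098 with the combination. The vehicle range touched every treated group, and the combination and E2 libraries did not overlap each other. Against vehicle the log2 fold changes were 0.11 with anastrozole (SE 0.04, edgeR adjusted p = 0.11), -0.01 with E2 (SE 0.03) and 0.08 with the combination (SE 0.03, adjusted p = 0.087). Leaving out 1 library gave 0.08 to 0.16 with anastrozole, which passed without anastrozole library c (adjusted p = 1.6e-04), and 0.06 to 0.12 with the combination, and the combination value passed without vehicle library a (0.12, adjusted p = 0.0075) and with the GC trend removed (0.08, adjusted p = 0.03, range 1.2e-04 to 0.3). KCNQ1OT1 gave -0.06, -0.02 and -0.04, none of which passed, and vehicle library b (123 CPM) was its highest library.

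The direct comparisons of the treatments called few members. Anastrozole against E2 called 1 of 9, with 1.33% of all genes and 3.3% of those of at least 5 log2 CPM called. This was NEAT1, higher with anastrozole by 0.12 (SE 0.03, edgeR adjusted p = 0.02), and alternatives that lost the call included limma-voom, DESeq2 and filterByExpr (range 1.2e-04 to 0.35) and without anastrozole library a (0.19) or b (0.53) or E2 library a (0.32), b (0.3) or c (0.12). GAS5 gave -0.12 there (SE 0.12, adjusted p = 0.84) and -0.21 to -0.03 on leaving out 1 library, called only without E2 library a (-0.19, adjusted p = 0.011). Adding anastrozole to E2 called 1 of 9, with 6.74% of all genes and 17.3% of those of at least 5 log2 CPM called. This was again NEAT1, higher by 0.10 (SE 0.03, adjusted p = 0.012). All 8 alternative fits kept this call (3.5e-05 to 0.043), but it was lost without E2 library a (0.14) or b (0.057) or combination library c (0.072). SNHG8 gave 0.14 there (SE 0.06, adjusted p = 0.2), with its combination libraries above its E2 libraries, and 0.22 with an adjusted p of 0.047 once the GC trend was removed (range 0.024 to 0.28). Without E2 library a or combination library b MALAT1 was called, at -0.16 (adjusted p = 4.5e-05) and -0.13 (0.0041), against -0.10 with all libraries and a range of -0.16 to -0.05. SNHG5 gave 0.04 (SE 0.12, adjusted p = 0.94) and -0.05 to 0.13 on leaving out 1 library, called only without E2 library c (adjusted p = 0.048).

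Adding E2 to anastrozole called 1 of 9, with 2.9% of all genes and 6.64% of those of at least 5 log2 CPM called. MALAT1 was lower with the combination than with anastrozole alone by -0.18 on the log2 scale (SE 0.04, edgeR adjusted p = 0.0019), although anastrozole library c (11415 CPM) lay under combination library b (11495 CPM). The call was lost with filterByExpr and in limma-voom (range 3.0e-05 to 0.21) and without anastrozole library b (0.41) or combination library c (0.056). GAS5 gave 0.10 (SE 0.05) and SNHG12 0.27 (SE 0.11), with adjusted p of 0.33 and 0.18, and GAS5 went from 0.01 without anastrozole library c (adjusted p = 0.97) to 0.18 without a, where it was called (0.0094).

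The 2 × 2 design also allows a test of whether the combination departs from the sum of the single changes on the log2 scale. This interaction called 1 of 9 members, with 10.9% of all genes and 26.6% of those of at least 5 log2 CPM called. SNHG1 had an interaction of -0.23 (SE 0.07, edgeR adjusted p = 0.0081), so its level with both agents was below the sum of its 2 single changes. The call was lost with the GC trend removed (-0.12, adjusted p = 0.32), in limma-voom (range over the alternatives 0.0074 to 0.32) and without anastrozole library a (-0.17, adjusted p = 0.11). MALAT1 had the same sign (-0.27, SE 0.11, adjusted p = 0.21), and FTX (0.72, SE 0.30, adjusted p = 0.12) and SNHG8 (0.22, SE 0.10, adjusted p = 0.14) the opposite one. Alternatives in which MALAT1 passed included limma-voom (adjusted p = 0.029, range 2.0e-13 to 0.69), and it passed without anastrozole library b (-0.20) or E2 library a (-0.33) or c (-0.22). GAS5 (-0.12, SE 0.14, adjusted p = 0.75) passed without anastrozole library c (-0.21, adjusted p = 0.039) or E2 library a (-0.19, adjusted p = 0.034), but gave -0.04 without anastrozole library a and -0.06 without E2 library c. SNHG8 passed with the GC trend removed (0.37, adjusted p = 0.0064, range 0.0028 to 0.14).

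Fold changes followed the GC content of the genes in most of these comparisons. Over 10845 genes whose mean was 3 log2 CPM or more, Spearman's rho between log2 fold change and exon GC content was -0.53 with anastrozole and -0.55 with E2, both against vehicle, 0.69 for the combination against E2, 0.57 for the combination against anastrozole and 0.71 for the interaction. It was -0.03 for the combination against vehicle and 0.11 for anastrozole against E2. These are correlations across genes, which are not independent replicates. The exon GC content of 8 of the members, between 38.7% and 44.1%, was below the median of 47.6% for these genes, and that of SNHG12 was 51.1%. Its part in the results was measured by refitting with the trend removed. Throughout, the shares of all genes called are from the fits without this removal. The calls of GAS5, SNHG1, SNHG12 and FTX with E2 stayed, at 0.16, 0.21, 0.49 and -0.90, as did the 3 with the combination, while MALAT1 with anastrozole (0.12 against 0.17) and the SNHG1 interaction (-0.12 against -0.23) no longer passed. A lost call alone does not show how much of a change went with GC content.

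**Figure D3:**
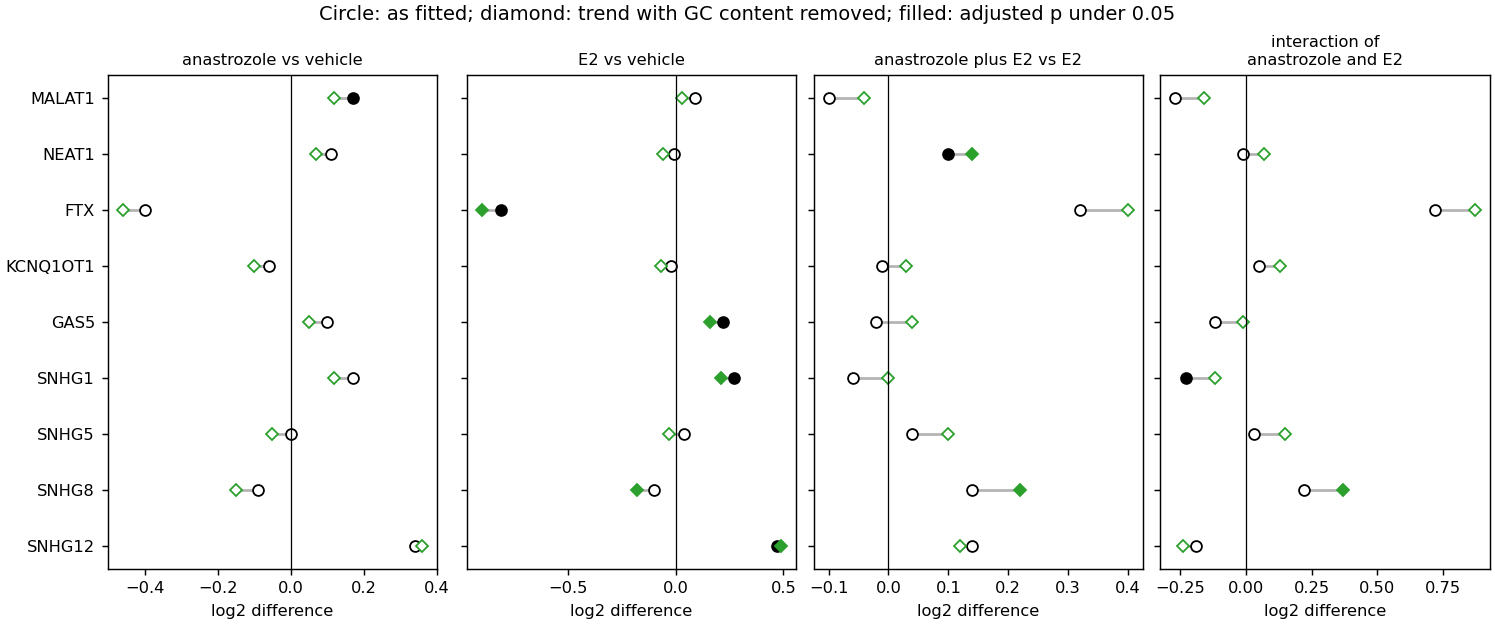
Log2 differences of the 9 long noncoding RNAs as fitted (circles) and with the trend on GC content removed (diamonds) in 4 comparisons, with filled symbols for an adjusted p under 0.05. For E2 against vehicle the filled circles of FTX, GAS5, SNHG1 and SNHG12 keep filled diamonds on the same side of 0, while the interaction of SNHG1 moves from -0.23 to -0.12 and is no longer filled.

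The small RNAs inside the members gave little signal at this depth. RefSeq places 32 microRNA and snoRNA genes inside them, of which 30 had at least 1 read. MIR545 had none, and no gene was counted under the symbol SNORA103. The most reads in any library were 105, for SNORD80 in GAS5. In each of the 7 comparisons edgeR called 0 of the 30 (1.33% to 12% of all genes called), with at most 3 at an unadjusted p under 0.05. The fit with the GC trend removed also called 0. The 10 snoRNAs counted in GAS5 summed to 15.0, 15.2 and 17.0 CPM in vehicle, 15.5, 16.7 and 15.1 with anastrozole, 14.5, 16.7 and 17.5 with E2 and 18.6, 18.2 and 18.1 with the combination. The combination libraries were above the others in this sum, and the E2 libraries were spread over the vehicle range and beyond it. The 8 snoRNAs in SNHG1 summed to 10.3, 12.6 and 11.7 CPM in vehicle, 12.3, 14 and 13.5 with anastrozole, 11.6, 14.1 and 12.8 with E2 and 15.2, 11.8 and 12.7 with the combination, so every treated group overlapped vehicle and reached above it. The 4 snoRNAs in SNHG12 summed to between 1.4 and 3.19 CPM, and the vehicle libraries (2.99, 3.12 and 2.49) were not below the treated ones, unlike those of their host. Libraries of this kind recover mature RNAs of that length poorly, and some of these reads may come from unspliced host transcripts, which was not tested.

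MIR612 lies inside NEAT1 and was counted apart from it. It had 31, 41 and 35 reads in vehicle, 27, 28 and 36 with anastrozole, 38, 54 and 43 with E2 and 69, 52 and 44 with the combination. In CPM the combination libraries (3.15 to 4.26) lay above the vehicle libraries (2.51 to 3.12). The log2 fold change with the combination was 0.41 against vehicle (SE 0.20, edgeR adjusted p = 0.29). Against anastrozole it was 0.51 (SE 0.21, adjusted p = 0.21), so neither difference passed the test at this depth. The 4 microRNAs of FTX with reads had at most 9 reads in a library.

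The wider family of noncoding snoRNA hosts behaved unevenly. Of 14 other hosts measured, E2 called 4 (12% of all genes called), of which EPB41L4A-AS1 (0.31, SE 0.07, edgeR adjusted p = 3.4e-04), SNHG6 (0.18, SE 0.05, adjusted p = 0.0083) and ZFAS1 (0.15, SE 0.04, adjusted p = 0.0012) rose and DANCR fell (-0.25, SE 0.08, adjusted p = 0.016). SNHG6 was not called with the GC trend removed (0.09). The combination called 2 of 14 (5.04% of all genes called), EPB41L4A-AS1 (0.25) and ZFAS1 (0.22), and anastrozole called 1 (3.67% of all genes called), ZFAS1 (0.19, adjusted p = 0.008). ZFAS1, the most abundant of them, had means of 153 CPM in vehicle, 173 with anastrozole, 169 with E2 and 178 with the combination. The median of the 14 was -0.06 with anastrozole, -0.01 with E2 and 0.05 with the combination, against 0.10, 0.22 and 0.20 for the 5 hosts among the members. Among direct comparisons, SNHG15 was higher with the combination than with anastrozole (0.34, SE 0.09, adjusted p = 0.021).

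**Figure D4:**
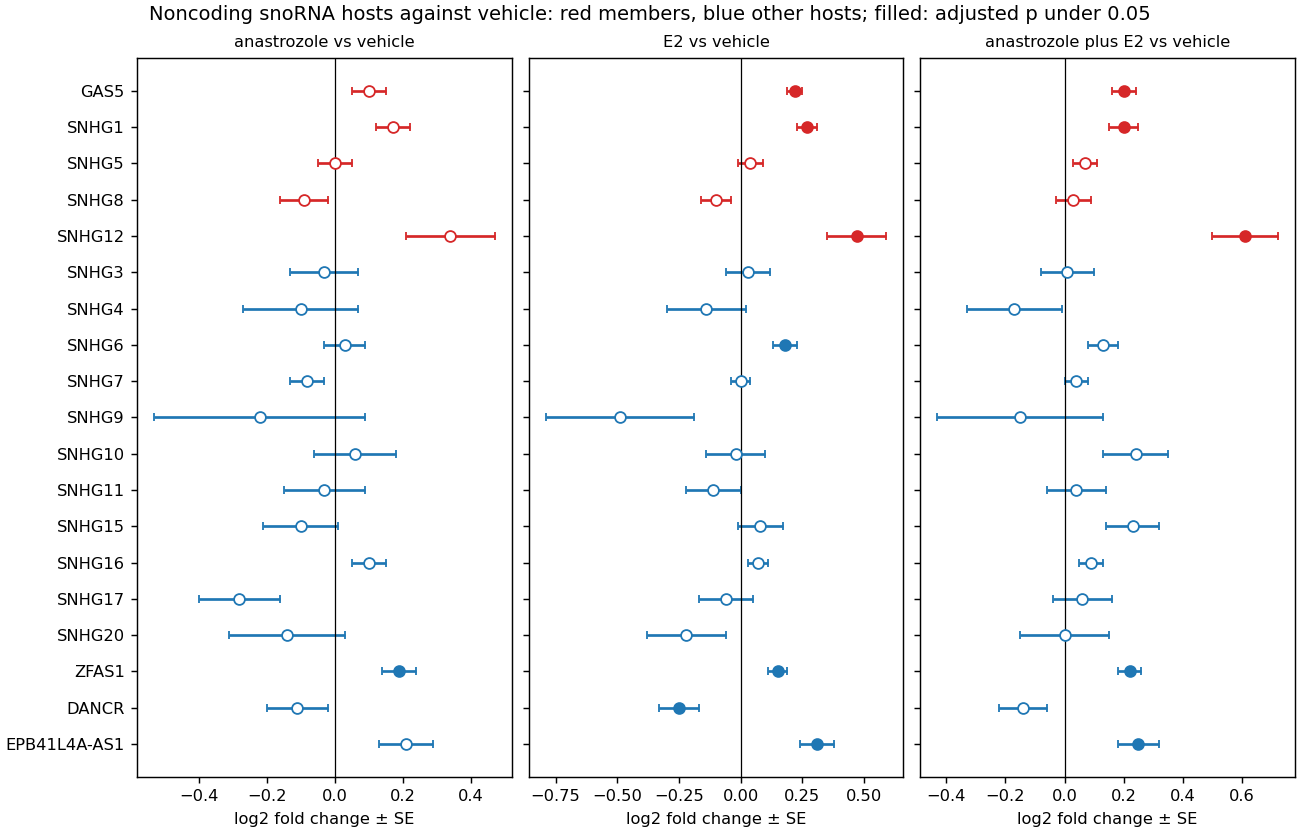
Log2 fold change ± SE against vehicle for 19 noncoding snoRNA hosts, the 5 members in red and 14 others in blue, with filled points for an adjusted p under 0.05. With E2, 6 of the 7 filled points lie above 0 and DANCR (-0.25) lies below it.

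Genes for paraspeckle proteins, which assemble on NEAT1, were listed next. Of 21 genes, E2 called 7, of which 5 fell and 2 rose, beside 12% of all genes and 28.3% of those of at least 5 log2 CPM. SFPQ fell by 0.27 (SE 0.04, edgeR adjusted p = 1.5e-11), from a mean of 237 CPM in vehicle to 197. Anastrozole called 3 (3.67% of all genes called, 9.07% of those of at least 5 log2 CPM), all lower, with SFPQ at -0.20 and CPSF6 at -0.16 among them. With the GC trend removed it called 6, for which no share of all genes is given here. The combination called 6 (5.04% of all genes called, 10.5% of those of at least 5 log2 CPM), with SFPQ at -0.16 and ZNF335 at -0.21 among 5 that fell. SFPQ had an interaction of 0.30 (SE 0.06, adjusted p = 1.2e-05) and 0.37 with the GC trend removed. HNRNPK, the most abundant of the list, was between 692 and 742 CPM in all libraries. Medians of the list were -0.04, -0.05 and -0.03 for anastrozole, E2 and the combination.

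The next list held 20 genes of nuclear speckles, where MALAT1 resides. E2 called 5 of 20 (12% of all genes called, 28.3% of those of at least 5 log2 CPM), of which 4 fell, including the splicing factor U2AF2 (-0.22, edgeR adjusted p = 3.3e-06), and the kinase CLK1 rose (0.20, adjusted p = 5.1e-04). With the GC trend removed neither U2AF2 (-0.11, adjusted p = 0.055) nor CLK1 (0.12, adjusted p = 0.075) passed. That fit still called 5 of the 20 with E2, a count to which the 12% and 28.3% do not apply. SRSF2 (-0.14, adjusted p = 1.0e-04) was among them. Anastrozole called 2 of 20 (3.67% of all genes called, 9.07% of those of at least 5 log2 CPM), again U2AF2 (-0.18) and CLK1 (0.21). Neither passed with the GC trend removed (-0.08 and 0.15), although that fit called 5 of the 20, for which no share is given here. The combination called 2 (5.04% and 10.5%), U2AF2 (-0.14) and SON (-0.14). Of 20 genes of nonsense-mediated decay and its associated decay steps, E2 called 5 (12% of all genes called, 28.3% of those of at least 5 log2 CPM, a level that some of the list do not reach) and the combination 1 (5.04% and 10.5%). Among them UPF3B rose (0.27, SE 0.09, edgeR adjusted p = 0.019) and SMG9 fell (-0.26, SE 0.09, adjusted p = 0.035) with E2. With the GC trend removed they stayed at 0.21 and -0.21 without passing, and E2 called 1 of the 20. Anastrozole called 0 of these 20 in edgeR (3.67% of all genes called), with or without the GC trend, and 4 had an unadjusted p under 0.05.

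Chromosomal neighbours of the members were tested as well. E2 called 2 of the 27 tested (12% of all genes called), JPX and LTBP3, and both fell. LTBP3, next to the NEAT1 and MALAT1 pair, fell by 0.23 with E2 (SE 0.04, edgeR adjusted p = 1.6e-06), from a mean of 128 CPM to 109, and by 0.12 with the GC trend removed (adjusted p = 0.033). Anastrozole called LTBP3 alone (-0.17, adjusted p = 0.043, beside 3.67% of all genes called), which did not pass with the GC trend removed (-0.07, adjusted p = 0.55). For the combination edgeR called 0 of 27 (5.04% of all genes called), with 3 at an unadjusted p under 0.05, or 1 with the GC trend removed. SLC3A2, the neighbour of SNHG1 and the most abundant of these genes, gave 0.02, 0.08 and 0.11, of which none passed. With the GC trend removed it passed with E2 (0.12, adjusted p = 0.0023) and with the combination (0.11, adjusted p = 0.014). Of the direct comparisons, the combination against E2 called 3 of 27 (6.74% of all genes called), SSSCA1 (0.23), LTBP3 (0.22) and CD81 (0.13), and against anastrozole 2 (2.9% of all genes called), SSSCA1 (0.28) and CD81 (0.21). The interaction called 3 (10.9% of all genes called), SSSCA1 (0.43), LTBP3 (0.39) and CD81 (0.26), with 9 at an unadjusted p under 0.05. With the GC trend removed only the LTBP3 interaction (0.18, adjusted p = 0.042) passed among these. KCNQ1 and CDKN1C, which share the imprinted domain with KCNQ1OT1, had 3 to 13 and 24 to 57 reads.

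Each member was also set beside the genes whose levels ran most like its own over the 12 libraries, by Pearson's r of log2 CPM among 6788 genes of at least 5 log2 CPM. These values describe the same libraries, which share treatments, depth and base composition. GAS5 ran with CYSTM1 (r = 0.96) and the elongation factor gene EEF1A1 (0.93). SNHG5 ran with the ribosomal protein genes RPL24, RPL31 and RPS25 (0.96 each). SNHG1 ran with the glycolytic PGK1 (0.95), the cell cycle kinase CDK1 (0.94) and B2M (0.93), and SNHG12 with CDKN3 (0.91), GAS5 (0.88) and HMGB2 (0.88). NEAT1 ran with PIP (0.95), whose means were 1708 CPM in vehicle, 1963 with anastrozole, 1694 with E2 and 1814 with the combination, and then with AGA (0.85) and DAD1 (0.83). MALAT1 ran with MED28 (0.92), SUDS3 (0.91) and ZFYVE20 (0.90), FTX with CREB3L4 (0.91), ZZEF1 (0.90) and CTSA (0.90), KCNQ1OT1 with QSER1 (0.89), DCAF10 (0.86) and LCOR (0.84), and SNHG8 with SERINC2 (0.89), MUC1 (0.88) and TRAPPC1 (0.87).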

How the data were processed

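By the study's methods, reads of 12 T47D libraries were aligned to hg19 with TopHat2 2.0.14 and Bowtie2 2.2.6 and counted per gene with HTSeq. The counts that the authors deposited are whole numbers without normalization. The annotation and strand setting are not given in the sources used here. Between 58.6% and 59.9% of the reads listed fell on no gene, and such lines were left out. The members and gene lists were chosen with earlier results of these data known. After removal of 4238 genes with 0 counts in all libraries, pairs of groups (6 libraries) and the interaction (12) were fitted with edgeR 4.0.16 in R 4.3.3 (TMM, robust quasi-likelihood F test, 2-sided, Benjamini-Hochberg over 21132 genes). The SE of a log2 fold change is its size over the root of edgeR's F. CPM are TMM-normalized. Named genes were the members, the small RNAs inside them, up to 4 of the called genes with the largest change per list and comparison plus the most abundant, and up to 3 of the most correlated genes per member. Symbols were matched to GENCODE 44 on GRCh37, 21539 by symbol and 1476 by an older symbol. Scripts were tested on simulated counts. Alternatives were DESeq2 1.42.0, limma-voom (limma 3.58.1), other scalings and filters, a lowess trend on GC content (span 0.5) removed, a replicate block and leaving out each library. Replicate pairs differed by more than sampling noise (chi-square per degree of freedom at least 1.27), so each library counted as 1 sample.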

Additional observations from a re-analysis of the deposited data

Results flagged for a closer look

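The interaction of anastrozole and E2 on SNHG1 was singled out because its test found that the change with one agent differed between cells with and without the other. Its value was -0.23 on the log2 scale (SE 0.07, edgeR adjusted p = 0.0081). It was -0.12 with an adjusted p of 0.32 when the trend on GC content was removed, so the parts of base composition and treatment cannot be told apart, and this was tested no further.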

How the results depend on the processing

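Over 37 member fold changes, the 27 against vehicle and the others with an unadjusted p under 0.05, and all alternatives, 464 of 536 values kept their direction and their side of the threshold, 31 lost the call, 23 gained one and 18 changed sign. Sign changes of the other member values were not counted. None of the sign changes touched a call. SNHG5 against vehicle was -8.5e-05 in limma-voom, -0.004 with the replicate block and -0.05 with the GC trend removed (with or without the block) for anastrozole, and -0.03 with the GC trend removed (with or without the block) for E2. Leaving out 1 library gave -0.10 to 0.09 and -0.06 to 0.12 for these 2 values, -0.11 to 0.02, -0.07 to 0.06 and -0.09 to 0.04 for KCNQ1OT1 with anastrozole, E2 and the combination, -0.03 to 0.03 for NEAT1 with E2 and -0.04 to 0.03 for MALAT1 with the combination. Members called for anastrozole (1) became 2 by library size alone and 0 with filterByExpr, limma-voom or the GC trend removed, with 0 to 5 on leaving out 1 library. For E2 (4) they became 1 in DESeq2, which gave no adjusted p for FTX and SNHG12, and 2 in limma-voom. For the combination (3) limma-voom called 1. For anastrozole against E2 (1) filterByExpr, DESeq2 and limma-voom called 0 and the GC correction with the block 2 (0 to 1 on leaving out 1 library). For the combination against E2 (1) the GC correction with or without the block called 2 (0 to 2), and against anastrozole (1) filterByExpr and limma-voom called 0 and the GC correction with the block 3 (0 to 2). For the interaction (1) the range was 0 to 3. Genes called for anastrozole (776) were 419 with filterByExpr, 238 in DESeq2 and 15 in limma-voom, with 191 to 1651 on leaving out 1 library, the highest without anastrozole library c. For E2 (2537) they were 1433 in DESeq2, 1379 in limma-voom, 1600 with the GC trend removed and 1506 with the block added. For the combination (1065) they were 463 in DESeq2 and 347 in limma-voom (682 to 964). For anastrozole against E2 (280) they were 160 with filterByExpr, 107 in DESeq2, 70 in limma-voom, 495 with the GC trend removed and 422 with the block added (107 to 414). For the combination against E2 (1424) they were 647 in DESeq2, 451 in limma-voom, 198 with the GC trend removed and 205 with the block added (885 to 1176), and against anastrozole (612) 295 with filterByExpr, 236 in DESeq2 and 90 in limma-voom (234 to 1706, the highest again without anastrozole library c). For the interaction (2295) they were 553 with the GC trend removed and 647 with the block added. The replicate letters were not taken to pair the libraries, since in no comparison did every letter's deviations correlate above 0.1 (-0.195 to 0.184 in all). That cut cannot exclude a weaker pairing. With the letter as a replicate block, members called were 0 for anastrozole against E2, 2 for the combination against E2 and 2 for the interaction, and genes called for anastrozole against E2 were 180. The block did not call NEAT1 for anastrozole against E2, and it called NEAT1 for the combination, MALAT1 for the combination against E2 and the MALAT1 interaction. With the GC trend removed as well, the block kept MALAT1 for anastrozole (0.12, adjusted p = 0.001). The cause was not tested. Low depth limits FTX and the small RNAs.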
